A study of Mus musculus with 8 samples.

Results

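Hepatocyte organic anion and canalicular transporters are the carriers and pumps that move bile acids, bilirubin conjugates, steroid conjugates and drugs through the liver cell. They were followed here by 10 genes, taken as every probe whose gene name on the array was Slco1a1, Slco1a4, Slco1b2, Slc10a1, Abcb11, Abcb4, Abcb1a, Abcc2, Abcc3 or Abcc4. Together they had 14 of the 41174 probes on the array, and all 10 genes were among the 15342 genes tested, since at least 1 probe of each was well above background on at least 2 of the 8 arrays. On no array was the other probe of Abcc4 well above background. Total liver RNA came from C57Bl/6 mice of 2 genotypes, AIM+/+ (wild type) and AIM-/- (knockout), where AIM is the macrophage protein encoded by Cd5l. Each genotype was measured on normal chow (0 weeks) and after 6, 12 and 20 weeks of a high-fat diet, with 1 single-colour Agilent array per genotype and time. Age, sex and the number of animals behind an array are not given in the sources used here, and diet time and age cannot be told apart.

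Hepatocytes take up bile acids and other organic anions from sinusoidal blood through the sodium-dependent carrier encoded by Slc10a1 and the sodium-independent Slco carriers. ATP-driven pumps of the canalicular membrane then secrete them into bile, and other pumps of the sinusoidal membrane can return them to blood. In mouse liver Slco1a1 is known as a carrier with higher expression in males, and Slco1a4 as one with higher expression in females.

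The arrays had between 18586 and 21119 probes well above background, the mark of the scanner software for a spot that clears its local background. Cd5l had a processed signal of 10544 to 30201 on the 4 AIM+/+ arrays and of 90.7 to 171 on the 4 AIM-/- arrays. The 4 arrays of a genotype shared a slide, so genotype and slide cannot be told apart. Both 20-week arrays stood apart in their sex chromosome signal. Xist, the RNA of the inactive X chromosome, read 903 in AIM+/+ and 892 in AIM-/- liver at 20 weeks, while the Y-linked Ddx3y was not well above background there and read 866 to 1679 on the other 6 arrays. The AIM-/- array at 6 weeks and the AIM+/+ array at 12 weeks also carried Xist signal, at 165 and 66.1, beside Ddx3y. Of 12 hepatocyte markers 11 were on the array, and all 11 were well above background on every array.

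Among the 4 uptake carriers, Slco1a1, a broad-specificity organic anion carrier, went from a strong signal to background during the diet. In AIM+/+ liver its processed signal was 2165 on chow and 2394, 63.7 and 6.15 after 6, 12 and 20 weeks. In AIM-/- liver it was 2620 on chow and 938, 26.8 and 5.32 at the same times. The 4 chow and 6-week arrays were high, the 12-week arrays were far lower, and the AIM-/- array at 12 weeks and both 20-week arrays were not well above background. The probe lies at chr6:141871298-141871357 on the minus strand (mm8, per the file headers). A separate probe, 379 bases away, followed it over the 8 arrays (r = 0.98) and was well above background on the 4 chow and 6-week arrays alone. Its signals were 1165, 1437, 31.9 and 7.43 in AIM+/+ and 1030, 599, 6.64 and 5.71 in AIM-/- liver. Because Slco1a1 had the widest range of the 10 genes, its promoter is shown as 250 bases before the RefSeq start (GRCm38.p6, chr6:141946963-141947212, minus strand), with matches to AGGTCA, the core hexamer bound by many nuclear receptors, in capitals.
Slco1a1: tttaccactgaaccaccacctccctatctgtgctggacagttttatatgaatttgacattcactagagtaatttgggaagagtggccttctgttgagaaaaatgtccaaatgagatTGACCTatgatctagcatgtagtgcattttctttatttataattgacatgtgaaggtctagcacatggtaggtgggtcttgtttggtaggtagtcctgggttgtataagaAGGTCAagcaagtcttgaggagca
Both matches, 1 on each strand, fall within 134 bases of the start, and 14% of the 32851 promoter windows of this length hold the same hexamer.

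Slco1a4, a neighbouring paralog that carries bile salts and digoxin, had its lowest values at 6 weeks and its highest at 20 weeks. The signal in AIM+/+ liver was 646 on chow and 237, 556 and 1107 after 6, 12 and 20 weeks. The AIM-/- arrays gave 756 on chow and 411, 417 and 992. All 4 arrays at 6 and 12 weeks lay below both chow arrays and both 20-week arrays, and the genotypes overlapped. Its probe (chr6:141768560-141768619, mm8, minus strand) lies 103 kb from that of Slco1a1. At 20 weeks, when Slco1a4 had its highest values, Slco1a1 was not above background. The promoter, shown to set the neighbour beside Slco1a1 (GRCm38.p6, chr6:141856221-141856470, minus strand), held none of the 6 motifs searched, so it has no capitals.
Slco1a4: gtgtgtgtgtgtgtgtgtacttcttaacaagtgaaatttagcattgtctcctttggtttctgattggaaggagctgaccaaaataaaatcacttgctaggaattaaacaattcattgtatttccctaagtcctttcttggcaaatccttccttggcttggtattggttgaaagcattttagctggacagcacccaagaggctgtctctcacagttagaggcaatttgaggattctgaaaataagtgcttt
No match says only that these letters are not in this window.

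Slco1b2, the liver-specific carrier of bilirubin and statins at the same locus (chr6:141648361-141648420, mm8), kept a strong signal throughout. It ranged from 50853 to 74982 over the 8 arrays, and the 2 arrays at 6 weeks were the highest. The AIM-/- value was below the AIM+/+ value of the same week on the scaled log2 level in 4 of 4 weeks, by 0.10 to 0.34.

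Slc10a1, the sodium-dependent bile acid carrier (chr12:81879331-81879390, mm8), was lowest at 12 weeks. In AIM+/+ liver its signal was 5129 on chow and 4270, 2736 and 7986 after 6, 12 and 20 weeks. The AIM-/- values were 3277 on chow and 6827, 1459 and 7038. Both 12-week arrays were the lowest of their genotype and both 20-week arrays had the highest processed signal, while the chow arrays overlapped with those of 6 weeks. On the scaled log2 level the highest AIM-/- array was that of 6 weeks (4.50, against 4.41 at 20 weeks).

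**Figure D1:**
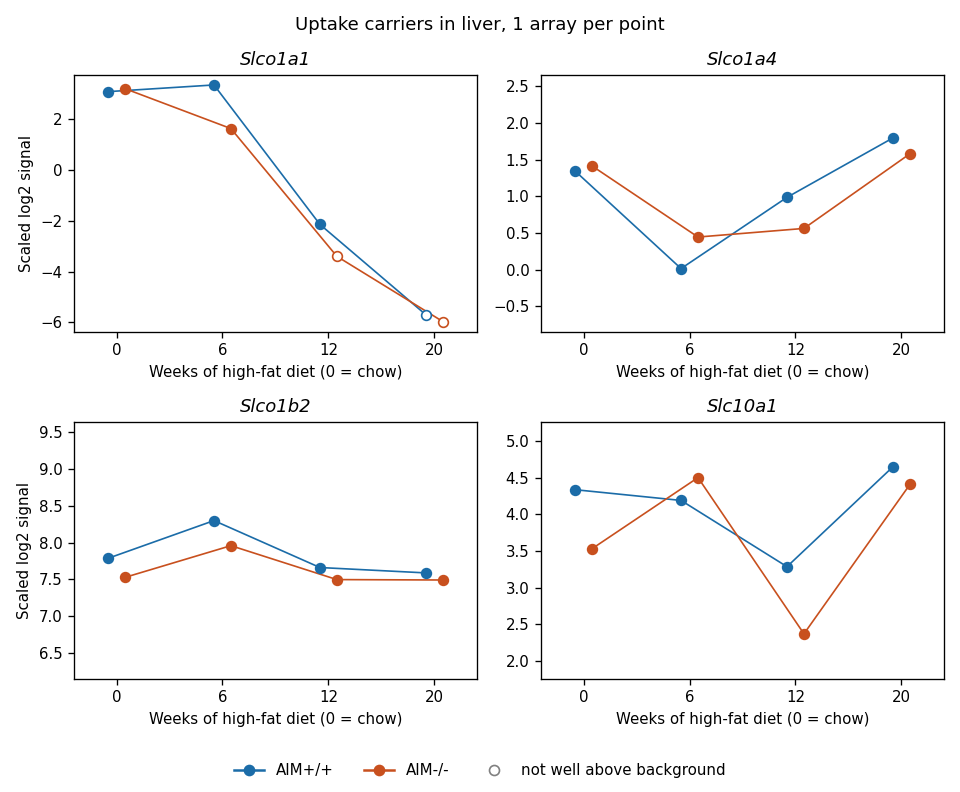
Scaled log2 signal (log2 processed signal minus the 75th percentile of its array) of the 4 uptake carriers against weeks of high-fat diet, 1 array per point, with open points not well above background. Slco1a1 goes from 3.09 and 3.21 on chow to -5.70 and -5.96 at 20 weeks, Slco1a4 is highest at 20 weeks, and Slco1b2 stays between 7.49 and 8.30.

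Of the canalicular pumps, Abcb11 (the bile salt export pump) and Abcb4 (which moves phosphatidylcholine into bile) had strong signals that lay on opposite sides of their chow values on the diet. Abcb11 (chr2:69039172-69039231, mm8) read 86880 on chow and 54302, 44180 and 62261 after 6, 12 and 20 weeks in AIM+/+ liver. In AIM-/- liver it read 67530 on chow and 58115, 41622 and 64119. Both chow arrays lay above all 6 diet arrays, and both 12-week arrays were the lowest. Abcb4 (chr5:8965114-8965173, mm8) read 33412 on chow and 41353, 57138 and 57590 in AIM+/+ liver, and 24063 on chow and 67585, 62435 and 54475 in AIM-/- liver. Both chow arrays lay below all 6 diet arrays. A separate probe of Abcb4, 18152 bases away, ran in parallel (r = 0.95) at 422 to 644 on chow and 765 to 1268 on the diet. No transporter probe was marked saturated on any array.

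Abcb1a, a multidrug efflux pump (chr5:8753985-8754044, mm8), lies 211 kb from Abcb4 and was near background on most arrays. It read 5.64 on chow and 6.40, 28.7 and 48.2 after 6, 12 and 20 weeks in AIM+/+ liver. The AIM-/- signal was 7.38 on chow and 6.56, 22.6 and 53.4. Only the 2 arrays at 20 weeks were well above background, and the 12-week arrays lay between those and the rest. Its promoter is shown because its profile ran opposite to that of Slco1a1 (GRCm38.p6, chr5:8566841-8567090, plus strand), and none of the 6 motifs was found in it.
Abcb1a: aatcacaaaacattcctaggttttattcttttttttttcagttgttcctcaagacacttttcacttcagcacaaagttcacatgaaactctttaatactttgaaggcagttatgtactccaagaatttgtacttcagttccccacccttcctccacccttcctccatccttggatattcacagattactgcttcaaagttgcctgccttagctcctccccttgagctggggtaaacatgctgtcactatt
Abcc2, the pump for bilirubin glucuronides and glutathione conjugates (chr19:43890900-43890959, mm8), ranged from 4036 to 7379 with the genotypes and times overlapping.

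The sinusoidal pumps differed from each other. Abcc3, which returns glucuronides to blood (chr11:94159447-94159506, mm8), ranged from 8451 to 16305 over the 8 arrays, and its other probe ran in parallel (r = 0.94). Abcc4, a pump for bile acids and cyclic nucleotides (chr14:117366592-117366651, mm8), read 146 on chow and 34.4, 172 and 267 after 6, 12 and 20 weeks in AIM+/+ liver. In AIM-/- liver it read 140.1 on chow and 66.7, 159 and 318. Both 6-week arrays were the lowest and both 20-week arrays the highest, with no overlap with the chow and 12-week arrays, which lay close together. The promoter of Abcc4 (GRCm38.p6, chr14:118706220-118706469, minus strand) is shown because this gene had a wide range over the arrays (2.71 on the scaled log2 level). Capitals mark 1 match to TGACNNNGC (NRF2) and 2 to GCGTG (the AhR core), all on the strand opposite to the gene and not overlapping one another.
Abcc4: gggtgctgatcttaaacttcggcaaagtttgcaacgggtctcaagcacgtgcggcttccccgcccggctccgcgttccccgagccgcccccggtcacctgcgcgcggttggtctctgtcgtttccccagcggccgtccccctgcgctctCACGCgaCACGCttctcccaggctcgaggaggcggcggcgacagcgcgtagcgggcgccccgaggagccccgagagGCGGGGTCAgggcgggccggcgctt
These motifs are held by 10.2% and 28.2% of all promoter windows, respectively.

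**Figure D2:**
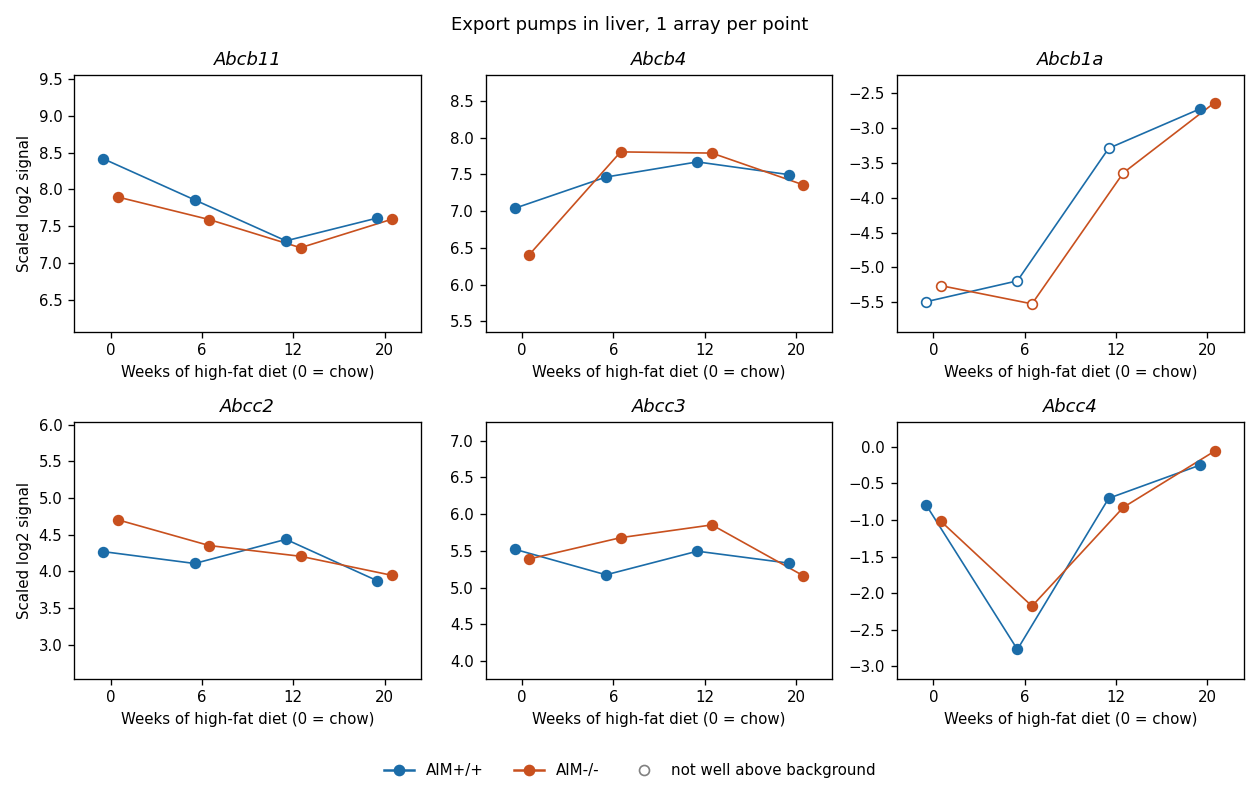
Scaled log2 signal of the 6 export pumps against weeks of high-fat diet, 1 array per point, with open points not well above background and a vertical scale of its own in each panel. Abcb11 is highest on chow (8.42 and 7.90), Abcb4 is lowest on chow (7.04 and 6.41), Abcb1a is above background only at 20 weeks, and Abcc4 is lowest at 6 weeks (-2.77 and -2.18).

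Promoters of 9 of the 10 genes, in 11 windows, were in the RefSeq table, which does not list Abcc3. Searched on both strands, AGGTCA was found for 5 of the 9 genes, GCGTG for 3, TTCNNNGAA (STAT5) and TGACNNNGC for 2 each and GTTAAT (an HNF1 core) for 1. Slco1b2 and Slc10a1 were the genes with a STAT5 match. None held the FXR inverted repeat, the hexamer facing its reverse complement across 1 free base as the bile acid receptor FXR binds it, and only 2 of all 32851 windows did. The shares over all windows were 14% for AGGTCA, 28.2% for GCGTG, 7.02% for TTCNNNGAA, 10.2% for TGACNNNGC and 6.43% for GTTAAT.

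The effect of losing AIM was asked by comparing the genotypes over the 4 times. None of the 10 transporters passed, and the coefficients ran from -0.78 for Slco1a1 to 0.14 for Abcc3 on the log2 scale. The limma fit, with week as a factor and Benjamini-Hochberg adjustment over all genes, called 0 of the 10 and 5 of all 15342 genes (0.0326%). At an unadjusted p under 0.05 it gave 0 of the 10 and 857 of all genes. Slco1a1 was 0.78 lower (SE 0.34, limma adjusted p = 0.938) and Slco1b2 0.22 lower (SE 0.09, limma adjusted p = 0.938). Abcb11 was 0.22 lower (SE 0.12), with the scaled level below AIM+/+ in 4 of 4 weeks, and Slc10a1 0.41 lower (SE 0.23). All 4 uptake carriers had a negative coefficient (median -0.31), the canalicular pumps had a median of -0.08 and the 2 sinusoidal pumps were at 0.14 and 0.11, beside a median of 0.00 over all genes. Each of these p-values measures how the genotype difference varies over the 4 weeks, which stand in for replicates, and not a spread between animals.

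At a single time 1 array stood against 1, which allows no test. Slco1a1 was the one transporter at least 2-fold apart between genotypes. It was 3.29-fold lower in AIM-/- liver at 6 weeks, when 6.56% of all genes were at least 2-fold apart, and at least 2.13-fold lower at 12 weeks, when 4.56% were. No transporter was 2-fold apart on chow (7.25% of genes) or at 20 weeks (4.16%). At 6 weeks AIM-/- liver also had lower Hsd3b5, a male-biased steroid dehydrogenase (154 against 9996). Cyp2b9, a female-biased cytochrome P450, was higher (11295 against 59.4). These 2 genes do not stand for their lists. Male-biased Elovl3 was higher in AIM-/- liver (11440 against 4135), as was Ugt2b38 (11398 against 6631). Female-biased Cyp3a41a lay at 7.56 against 7.47 on the scaled log2 level. The arrays compared also differed in Xist. At 6 weeks it read 165 on the AIM-/- array, which had the lower Slco1a1, and was not well above background in AIM+/+ liver. At 12 weeks it read 66.1 on the AIM+/+ array, which had the higher Slco1a1, and was not well above background in AIM-/- liver. Ddx3y was well above background on each of these arrays. The part of the sex-biased genes and of the Xist signal in the Slco1a1 differences was not tested.

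The effect of the diet was asked by setting the mean of 6, 12 and 20 weeks against chow. Slco1a1 fell, the near-background Abcb1a had a higher value that passed the test, and the other 8 transporters did not pass. The limma fit called these 2 of the 10, beside 358 of all genes (2.33%). Slco1a1 fell by 5.18 on the log2 scale (SE 0.39, limma adjusted p = 0.0245). This is 36.3-fold as measured, with 3 of the 6 diet arrays above background, so the size rests partly on background. Abcb1a was 1.54 higher (SE 0.16, limma adjusted p = 0.0362), with no chow array and 2 of 6 diet arrays above background, so no fold is given. Abcb1a was tested at all only because of its 20-week arrays, where it is high, so its diet call is a description and nothing is supported with it. With the normexp background correction Abcb1a differed by 0.27 and was not called (limma adjusted p = 0.185), while Slco1a1 still fell by 3.46 (limma adjusted p = 0.0115).

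Abcb11 and Abcb4 came next among the canalicular pumps. Abcb11 was 0.63 lower on the diet (SE 0.14, 1.55-fold, limma adjusted p = 0.0813), and it passed with normexp (limma adjusted p = 0.0471) and among genes above background on every array (limma adjusted p = 0.0468). Abcb4 was 0.88 higher (SE 0.21, 1.83-fold, limma adjusted p = 0.0937). Both had the same sign in 6 of 6 diet arrays against either chow array. This and the other separations of arrays described here are no test, and their share over all genes is not given. Slco1a4 was 0.48 lower, Abcc2 0.33 lower and Abcc4 0.23 lower without passing, and Slco1b2, Slc10a1 and Abcc3 differed by less than 0.10. The median over the 10 was -0.13, beside -0.02 over all genes.

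Taken time by time in the same fit, a split added after the data had been seen, the transporters did not move together. At 6 weeks none of the 10 passed (1 gene of all, 0.00652%), and the lowest coefficients were those of Abcc4, 1.57 lower than chow (SE 0.23, 2.96-fold, limma adjusted p = 0.185), and Slco1a4, 1.15 lower (SE 0.23, limma adjusted p = 0.268). Slco1a1 was then 0.65 lower (SE 0.48). At 12 weeks Slco1a1 and Abcb1a, 2 of the 10, passed, beside 6.09% of all genes. Slco1a1 fell by 5.92 (SE 0.48, 60.4-fold with 1 of 2 arrays above background, limma adjusted p = 0.0197). Abcb1a was 1.91 higher (limma adjusted p = 0.0273), but no array of either group was above background, so no rise is read from it. Abcb11 was 0.90 lower (limma adjusted p = 0.0505) and Slc10a1 1.10 lower (limma adjusted p = 0.111). At 20 weeks the same 2 of the 10 passed, beside 1.69% of all genes. Slco1a1 was at least 112-fold lower than chow (limma adjusted p = 0.00975) and Abcb1a at least 1.45-fold higher (limma adjusted p = 0.0229), the latter on the arrays that brought it into the test. The 20-week time and the sex chromosome signal of its arrays cannot be told apart for any transporter, Slco1a1 included. In order of level, the neighbouring times of Slco1a1 were not separated by the fit from chow to 6 weeks, nor from 12 to 20 weeks.

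The diet calls rested on few arrays. Without both 20-week arrays, Slco1a1 was 3.29 lower on the diet (limma adjusted p = 0.110) and Abcb1a 0.97 higher (limma adjusted p = 0.142), and no gene passed. The fall of Slco1a1 at 12 weeks was as large and still passed without them (-5.92, SE 0.50, limma adjusted p = 0.0421). With 1 array left out in turn, the diet call of Slco1a1 held without the AIM+/+ array at 6 weeks (limma adjusted p = 0.0431) and was lost without each of the other 7 (limma adjusted p = 0.0605 to 0.111), with coefficients of -5.78 to -4.58. That of Abcb1a was lost in all 8 cases (limma adjusted p = 0.0604 to 0.130).

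The 20-week arrays were then set against those of 6 and 12 weeks, within the diet. Slco1a1 was lower than the mean of both earlier diet times, though against 12 weeks alone it did not pass (-3.06, limma adjusted p = 0.166), and Abcc4, Slco1a4, Abcb1a and Slc10a1 had positive coefficients that did not pass. The limma fit called 1 of the 10, beside 24 of all genes (0.156%). Slco1a1 was at least 11.4-fold lower (5.69 on the log2 scale, SE 0.42, limma adjusted p = 0.0348). Abcc4 was 1.46 higher (SE 0.20, 2.76-fold, limma adjusted p = 0.106), Slco1a4 1.18 higher (SE 0.20, 2.27-fold, limma adjusted p = 0.162) and Slc10a1 0.94 higher (SE 0.29, limma adjusted p = 0.301). Abcb1a was at least 1.47-fold higher (SE 0.17 on the log2 scale, limma adjusted p = 0.0688). The other 5 lay between -0.37 for Abcc2 and 0.11 for Abcb11. The median over the 10 was -0.07, beside -0.01 over all genes. The Slco1a1 call held when either chow array was left out (limma adjusted p = 0.0482) and was lost without any of the 6 diet arrays (limma adjusted p = 0.0715 to 0.290). It was also lost with its other probe (limma adjusted p = 0.0754).

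Whether the diet acted differently in the genotypes was asked by an interaction term. No transporter passed and no gene of the 15342 did (0%), with 0 of the 10 and 679 of all genes at an unadjusted p under 0.05 in the limma fit. Abcb4 had the smallest standard error of the 10, with a diet difference 0.74 larger in AIM-/- than in AIM+/+ liver (SE 0.34). For Slco1a1 the term was -1.20 with an SE of 5.67.

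**Figure D3:**
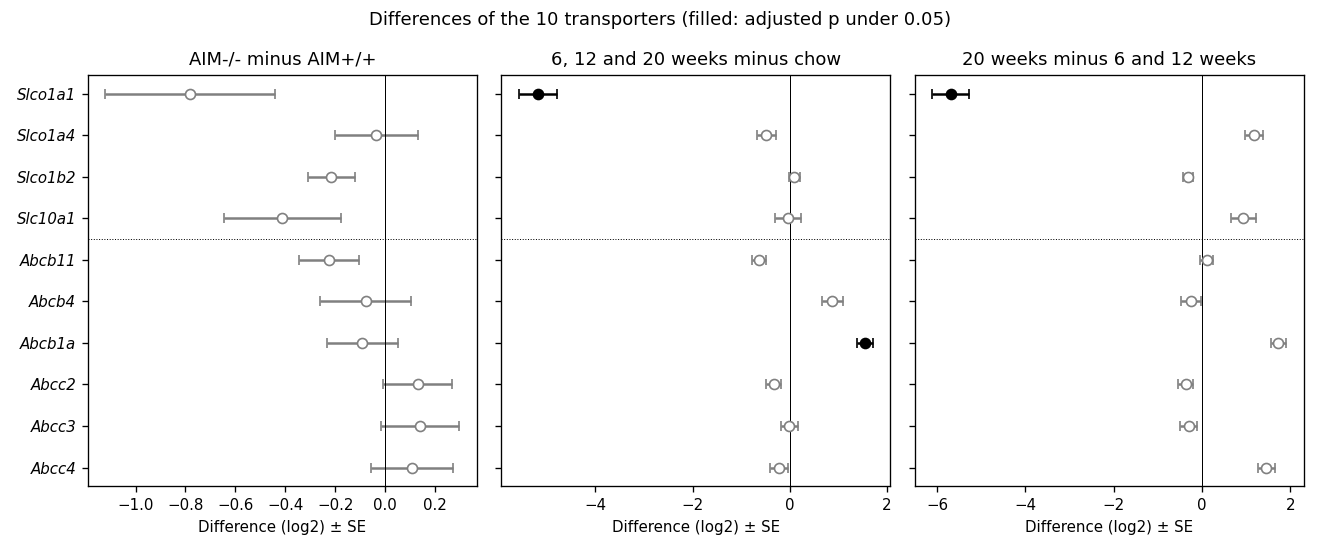
Log2 differences with their SE for the 10 transporters in the limma fit over 8 arrays, by genotype, by diet and by 20 weeks against 6 and 12 weeks, with filled points for adjusted p under 0.05 and a horizontal scale of its own in each panel. Slco1a1 is filled by diet (-5.18) and at 20 weeks (-5.69), Abcb1a is filled by diet (1.54), and no point is filled by genotype.

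Uptake carriers were set against export pumps by the mean scaled log2 deviation of each class from its 8-array mean, which carries no test. The uptake minus export difference was 1.24, 1.45, -0.77 and -1.21 at 0, 6, 12 and 20 weeks in AIM+/+ liver. For AIM-/- liver it was 1.16, 0.94, -1.41 and -1.42. All 4 arrays up to 6 weeks were positive and all 4 later arrays negative. The diet difference was -1.61 (SD 0.26 over the 2 genotypes), and Slco1a1 carried most of it: without that gene it was -0.34, and without Slco1a1 and Abcb1a it was -0.077. For 20 weeks against 6 and 12 weeks it was -1.37 (SD 0.26 over the 2 genotypes), and the sign turned to 0.21 without Slco1a1 and to 0.47 without both. By genotype it was -0.36 (SD 0.26 over the 4 weeks), and -0.22 without Slco1a1. These choices of genes were added after the data had been seen.

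**Figure D4:**
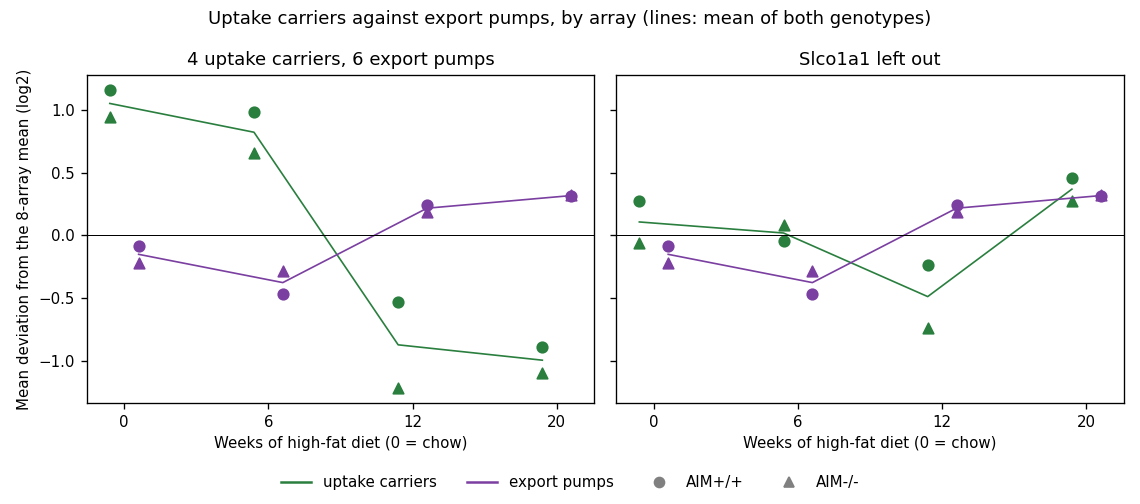
Mean deviation of the uptake carriers and of the export pumps from their 8-array mean (log2) against weeks of diet, with points for arrays and lines for the mean of both genotypes, for all genes on the left and without Slco1a1 on the right. On the left the uptake mean goes from 1.16 and 0.94 on chow to -0.89 and -1.10 at 20 weeks, and on the right the uptake mean at 20 weeks is 0.46 and 0.27, close to the export mean of 0.31 and 0.32.

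Profiles within the set were described by Pearson correlation over the 8 arrays, which share RNA, slide and scaling between genes. Slco1a1 was at background on 3 of the 8 arrays and Abcb1a on 6, so their coefficients and the order of genes most like them rest partly on background values. Slco1a1 and Abcb1a ran opposite to each other (r = -0.97), as did Slco1b2 and Abcc4 (r = -0.90). Slco1a4 and Abcc4, both lowest at 6 weeks and highest at 20 weeks, ran together (r = 0.87). Abcb11 and Abcb4 had r = -0.64, and the neighbouring paralogs Slco1a1 and Slco1a4 had r = -0.47. Among 9505 named genes above background on every array, those most like Slco1a1 included Tor1aip2 (r = 0.99), Tcea1 (r = 0.99) and Mindy3 (r = 0.98). The most opposite were Ltbp3 (r = -0.98) and Vps52 (r = -0.98). Of these 5 genes, Mindy3 and Ltbp3 spanned more than 1 log2 unit. Those most like Abcb1a were Osbpl5, Evpl, Sec14l1 and Ifitm1 (r = 0.97, 0.97, 0.97 and 0.96), and the most opposite were Atg4b (r = -0.98) and Usp47 (r = -0.98).

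Of 41 other genes of organic ion and bile transport, 31 were measured. By diet 1 rose and 1 fell in the limma fit, beside 1.54% and 0.795% of all genes. The list median was 0.08, beside -0.02 over all genes. The carnitine carrier Slc22a5 rose by 1.45 (SE 0.15, 2.72-fold, limma adjusted p = 0.0362), from 243 and 229 on chow to 398 to 1109 on the diet with no overlap. The prostaglandin carrier Slco2a1 fell by 1.73 (SE 0.15, 3.31-fold, limma adjusted p = 0.0268), from 2714 and 3154 to 570.2 to 1677, also with no overlap. At 20 weeks against 6 and 12 weeks none of the 31 passed, with Abcg2, a canalicular efflux pump, 1.28 lower (SE 0.23, limma adjusted p = 0.173) and Slco1a5, a further paralog at the Slco1a locus, at least 1.54-fold higher (limma adjusted p = 0.0883). By genotype none of the 31 passed (median -0.03, beside 0.00).

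Of 24 regulators of transport genes, 23 were measured, and none passed by genotype or diet. Nr0b2, a repressor induced by bile acid signalling, was 0.81 lower on the diet (SE 0.23, limma adjusted p = 0.117). At 20 weeks against 6 and 12 weeks 1 of the 23 rose, beside 0.111% of all genes. This was Cux2, a repressor known for female-predominant expression in liver, at least 7.99-fold higher (limma adjusted p = 0.0247) and above background on the 2 arrays at 20 weeks alone. Those arrays brought it into the test, so the call is a description. Of 15 genes of bile acid synthesis and conjugation, all measured, none passed by genotype, by diet or at 20 weeks against 6 and 12 weeks. At 12 weeks against chow 2 of the 15 fell, beside 2.01% of all genes. These were the sterol hydroxylase Cyp27a1, by 1.27 (SE 0.20, limma adjusted p = 0.0425), and the receptor partner Klb, by 0.86 (SE 0.15, limma adjusted p = 0.0472), named after their values were seen. Cyp7b1, an oxysterol hydroxylase that is also in the male-biased list, was 2.18 lower on the diet (SE 0.39, limma adjusted p = 0.0617). Cyp7a1, the rate-limiting enzyme of bile acid synthesis, was 2.06 higher at 20 weeks (SE 0.38, limma adjusted p = 0.181).

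Sex-biased liver genes were set beside the transporters. All 13 measured male-biased genes had negative diet coefficients (median -1.29, beside -0.02 over all genes). Of them 2, Gstp1 and Susd4, passed as falls, beside 0.795% of all genes. At 12 weeks against chow all 13 were again negative (median -1.78, beside -0.05 over all genes). Of them 4 fell (Hsd3b5, Cyp4a12a, Serpina1e and C8b), beside 2.01% of all genes. On the AIM+/+ and AIM-/- arrays at 12 weeks Ddx3y read 1139.7 and 1037. Xist read 66.1 and 6.29 there, well above background on the AIM+/+ array alone. The part of sex in these falls was not tested. Hsd3b5 read 14976 and 7436 on chow and was not well above background on either 12-week array. Of the female-biased genes 20 were measured, 6 of which were above background at 20 weeks alone and were tested only because of those arrays. At 20 weeks against 6 and 12 weeks A1bg, Slc22a26, Cux2, Hao2 and Prom1 passed as higher, beside 0.111% of all genes. All but Hao2 are among those 6, so these calls are a description. By diet A1bg, Hao2 and Slc22a26 passed as higher (1.54% of all genes did), the same limit holding for A1bg and Slc22a26. Also by diet 3 cytochrome P450 genes fell (Cyp3a16, Cyp3a41a and Cyp3a44, by coefficients of -1.59 to -1.19), beside 0.795% of all genes. At 12 weeks against chow the same 3 fell and Hao2, above background on no chow array, rose. Of the 20 coefficients 15 were then positive and 5 negative (median 0.56). A1bg read 2693 and 4188 at 20 weeks and was not above background on the other 6 arrays. Slco1a4, Abcc4 and Abcb1a were highest on these same 2 arrays, and the part of the sex signal in their values was not tested.

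**Figure D5:**
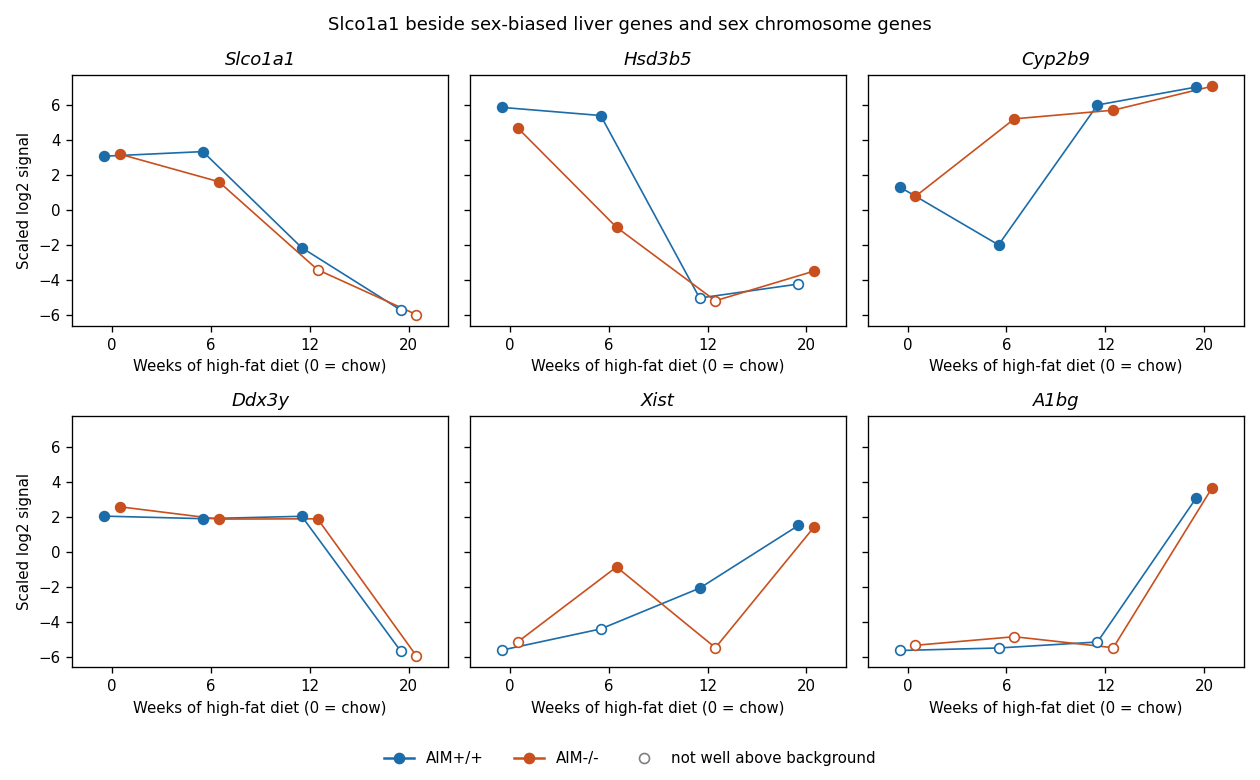
Scaled log2 signal of Slco1a1 beside male-biased Hsd3b5, female-biased Cyp2b9 and A1bg, Y-linked Ddx3y and X-linked Xist, against weeks of diet, 1 array per point, with open points not well above background. Slco1a1 and Hsd3b5 are low from 12 weeks. Ddx3y stays between 1.86 and 2.57 until 12 weeks and is not above background only at 20 weeks. Xist is above background at 20 weeks, and also on the AIM-/- array at 6 weeks and the AIM+/+ array at 12 weeks.

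Markers of other cells also moved with diet time. The signals of 11 hepatocyte markers, each over the 75th percentile of its array, summed to 5680.4 to 5983 on chow, 4543 to 6073 at 6 weeks, 4456 to 4543 at 12 weeks and 4842 to 4982 at 20 weeks. That of 10 cholangiocyte markers was 14.7 to 43.3 on chow, 15.0 to 15.7 at 6 weeks, 41.9 to 106 at 12 weeks and 39.5 to 52.8 at 20 weeks, with Tff3 high on the AIM-/- chow array and Spp1, which other cells also make, giving most of the sum from 12 weeks on. Of the defining duct markers, Krt7 read 319 and 221 at 20 weeks and 12.3 to 110.0 on the other arrays, and Epcam was above background at 20 weeks alone (59.9 and 34.6). The list did not move as one. Of its 8 measured genes 5 had positive and 3 negative diet coefficients, and again 5 and 3 at 20 weeks against chow. At 12 weeks against chow Spp1 rose and Onecut1 fell (by 1.10, SE 0.17, limma adjusted p = 0.0406), beside 6.09% of all genes called. Of the hepatocyte markers Ass1, a urea cycle enzyme, fell by 1.09 on the diet (SE 0.15, limma adjusted p = 0.0468), and 10 of the 11 had negative diet coefficients (median -0.22, beside -0.02 over all genes). At 12 weeks against chow 2 of the 11 fell, Cps1 and Ass1, beside 2.01% of all genes. Summed endothelial markers were at 30.2 to 35.2 on chow and 25.7 to 31.3 at 6 weeks. They were at 36.8 to 45.5 at 12 weeks and 35.9 to 38.5 at 20 weeks. None of these 10 markers passed against chow at any of the 3 times. Stellate markers summed to 64.6 to 77.8 on chow, 71.6 to 73.7 at 6 weeks, 107 to 113 at 12 weeks and 99.5 to 127 at 20 weeks, and 1 of the 10, Lrat, rose on the diet (by 0.69, SE 0.10, limma adjusted p = 0.0498). Markers of kidney and intestine summed to 82.0 to 85.1 on chow and 249 to 323 on the diet, nearly all of it Fabp2, a fatty acid binding protein that liver also expresses, which rose by 1.74 (SE 0.12, limma adjusted p = 0.0238). The 11 Kupffer cell markers other than Cd5l summed to 74.2 to 115 in AIM+/+ and 80.0 to 104 in AIM-/- liver. With Cd5l included, all 12 had a negative genotype coefficient (median -0.19). The 1 that passed as a fall, beside 0.0196% of all genes, was Cd5l itself. It is the gene that encodes AIM, so its call was fixed by the design and says nothing of Kupffer cells. All 12 interaction terms were negative too (median -0.46), and none passed. At 6 weeks against chow all 12 were positive (median 0.31), and none passed. At 12 weeks 8 were positive and 4 negative, and Cd68, C1qb and Cd5l rose, beside 4.08% of all genes. The part of these cell markers in the transporter values was not tested. In bulk tissue fewer cells of a type and less RNA per cell cannot be told apart.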

How the data were processed

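Liver RNA was measured on 8 arrays, 1 for each genotype at each of 4 times. Per the submitters' processing notes, Agilent Feature Extraction 9.5 read the spots, and the deposited processed signal intensity is background-subtracted and detrended, per the file headers (protocol GE1-v5_95_Feb07). The authors' deposited value matrix holds log2 values. Set against the scanner files, its columns are the log2 processed signal minus the 75th percentile of the array, with medians of -3.60 to -3.42.

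The 1639 control spots and 75 to 130 outlier spots per array were left out, log2 signals were scaled by the 75th percentile, and probes well above background on at least 2 arrays were kept. The brightest probe stood for a gene. limma 3.58.1 (R 4.3.3, with version 1.17.8 of data.table) fitted week and genotype with 3 residual degrees of freedom, and genotype by diet in 4 cells with 4. The threshold was a Benjamini-Hochberg adjusted p under 0.05. Where a group was not above background on any array, "at least" stands before a fold, set against the weakest signal above background. Symbols came from RefSeq through accessions (24375 probes matched, 16799 kept the name in the file). Fits were tested on simulated data. They recovered 52% of 2-fold changes by genotype, 44% by diet, 37% at 20 weeks and 0% by interaction. Of 8-fold changes they recovered 90%, 86%, 86% and 44%. A gene that did not pass may therefore still have changed. Promoters were searched with Python 3.11.15 and pandas 2.3.3, and plots were drawn with matplotlib 3.10.9. The position of probes in exons or untranslated regions was not analysed here.

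The 10 genes and the gene lists were chosen with earlier results of these data known. Named were all 10 genes, and from each list the genes past a threshold and up to 4 with the largest coefficients, of which the text gives a part. Alternatives were the normexp correction (offset 50), quantile normalization, other filters on dim probes, other probes, the deposited matrix, and arrays or times left out.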

Additional observations from a re-analysis of the deposited data

How the results depend on the processing

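With 8 arrays and 3 residual degrees of freedom, the calls by diet and at 20 weeks changed with the arrays and the filter, and the sizes for Slco1a1 and Abcb1a are limited by background. No paired analysis was possible because 1 is the only replicate number. The genotypes are matched by week, which all fits but that of the interaction hold as a factor. Slide could not be used as a block because it coincides with genotype. Transporters called by diet (2) numbered 1 without a filter, 1 above background on all arrays, 0 without the 20-week arrays, 0 for 6 weeks alone and 0 to 1 with an array left out. Transporters called at 20 weeks (1) numbered 2 with normexp, 2 with quantile normalization and 2 against 6 weeks. They numbered 0 without a filter, 0 above background on all arrays, 0 against 12 weeks, 0 with the other probes, and 0 to 1 with an array left out. Abcc4 was the addition with normexp (0.94, limma adjusted p = 0.0428), and Abcb1a with quantile normalization (limma adjusted p = 0.0462) and against 6 weeks (limma adjusted p = 0.0441). No alternative called a transporter by genotype or interaction. All genes called by diet (358) numbered 693 with normexp, 232 with quantile normalization, 27 without a filter, 905 above background on all arrays, 0 without the 20-week arrays, 1 for 6 weeks alone, 935 for 12 weeks alone and 0 to 119 with an array left out. All genes called at 20 weeks (24) numbered 55 with normexp, 7 without a filter, 1 above background on all arrays and 3 to 19 with an array left out. All genes called by genotype (5) numbered 3 above background on all arrays and 1 without the 20-week arrays, without chow or with any array left out. The interaction called 111 genes without a filter and 0 to 3 with an array left out. The uptake minus export difference by diet was -0.97 with normexp, -0.34 without Slco1a1 and -0.077 without Slco1a1 and Abcb1a. At 20 weeks it was -0.33 with normexp and reversed to 0.21 and 0.47 without those genes. The 12-week genotype difference of Slco1a1 counted 0 transporters at 2-fold with normexp, and 0 when both arrays had to be above background. The cause of these changes was not tested.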
